A study of Mus musculus with 10 samples.

Results

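Lymphatic endothelial cells (LECs) that had lost *Tie1* were compared with LECs of the same plate that had kept it, in mice that carried floxed *Tie1* alleles and no floxed Tie2 allele. The cells were chosen by their own *Tie1* reads. Wells of the 2 Cre-positive *Tie1* floxed plates with at least 50000 gene counts and at least 1000 detected genes were called lost under 250 CPM of *Tie1* (CPM, counts of a gene per 1000000 counts of the well) and retaining at 1000 CPM or more. Of 762 wells in these plates 667 passed the depth rule, 429 were lost (202 in plate 1 and 227 in plate 2), 165 were retaining (78 and 87), and 73 lay between the limits and were set aside (43 and 30). The 594 lost and retaining wells are part of 3048 wells in 8 plates. Because *Tie1* chose the wells, its level gives no result here and was left out of every comparison.

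The study deleted the Tie receptors in LECs of newborn mice to find out what they do in lymphatic growth. Single LECs were sorted from ear skin as live CD31+ Podoplanin+ CD45- CD11b- Ter119- cells and sequenced by the full-length Smart-seq method, 1 cell in each well. The compared wells came from Prox1CreERT2;Tie1fl/fl pups, in which Cre is made by cells that express *Prox1* and works after 4-hydroxytamoxifen, given as 62.5 µg doses at P1 to P5. Used beside them were plates of Tie1fl/fl pups without Cre, of Prox1CreERT2;Tie1fl/fl,Tie2fl/fl pups, and of Tie1fl/fl,Tie2fl/fl pups without Cre, with 2 plates per genotype. The labels list 4-hydroxytamoxifen for every plate, controls included, and all mice carried floxed *Tie1*. By the study's text the cells were taken weeks after the last dose, and the labels give no separate age for that time. Plate 1 of both *Tie1* floxed genotypes is labelled female and plate 2 male, and these 2 plates also differ in how the tables name genes, so sex and table layout cannot be told apart. How many mice a plate held is not given in the sources used here, so n is 2 plates per genotype. An SE or adjusted p measures only the spread between plates, estimated over all plates of a fit, which may be technical.

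*Tie1* is a receptor tyrosine kinase of endothelial cells that binds no angiopoietin by itself but pairs with Tie2, encoded by *Tek*. Angiopoietin-2, encoded by *Angpt2*, is made by endothelial cells and acts on Tie2, and activated Tie2 signals through PI3K and Akt, which keep FoxO transcription factors out of the nucleus. Lymphatic capillaries take up fluid, collecting vessels carry it, and valves in the collecting vessels keep it from flowing back.

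In the Cre-positive plates the wells under 250 CPM of *Tie1* made up 62.5% (95% Wilson interval 57.1 to 67.6) of plate 1 and 66.0% (60.8 to 70.8) of plate 2. The same rule took 1.48% and 8.53% of wells in the Tie1fl/fl plates without Cre, 6.82% and 0.901% in the Tie1fl/fl,Tie2fl/fl plates without Cre, and 53.4% and 57.5% in the plates with Cre and both floxed genes. The wells just inside and outside the limits were close together. The highest lost well held 248 CPM in each plate and the lowest well above that limit 260 and 255 CPM, while the highest well under the upper limit held 981 and 979 CPM and the lowest retaining well 1024 and 1003 CPM. Median *Tie1* was 64.5 and 3.01 CPM in lost wells and 2070 and 1904 CPM in retaining wells. Intervals on shares of wells cover counting error only.

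Both classes carried LEC transcripts at like summed levels, although single genes differed. Summed over the wells of a class, the 12 LEC identity genes, of which *Prox1*, *Pdpn*, *Flt4*, and *Lyve1* are the defining ones, reached 14560 CPM in lost and 13610 CPM in retaining wells of plate 1, and 14687 and 14112 CPM in plate 2. Of these 12 genes 3 were higher and 5 lower in lost wells of both plates. *Prox1* was among the lower ones, at 984 against 1455 CPM in plate 1 and 822 against 944 CPM in plate 2. In no well of these plates did fibroblast markers exceed LEC markers, and markers of other cells were not compared in this way. The median depth was 208425 counts in lost and 240988 in retaining wells of plate 1, and 230715 and 245017 counts in plate 2. Median detected genes were 7218.5 and 7264.5 in plate 1 but 3794 and 3873 in plate 2. Detected genes thus differed far more between plates than between classes. Low reads of abundant genes were also spread over more wells in plate 1. There, 0 of 202 lost wells had no *Tie1* read at all, against 101 of 227 in plate 2, and *Angpt2* was detected in 202 of 202 lost wells, against 205 of 227. Every comparison of lost with retaining wells was therefore made within plates, and the part that this background has in the limits of the classes was not tested.

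Counts were summed over the wells of each class in each plate, which gave 4 sums, and no gene passed the test between them. The fit also held the lost and retaining sums of the 2 Cre-positive plates with both genes floxed, 8 sums in all. Each strain had its own class effect, but the spread was estimated over both strains and moderated across genes. An SE is therefore not the spread of the 2 compared plates alone. edgeR's quasi-likelihood test with plate as a term called 0 of 16927 genes (0.0% of genes) after Benjamini-Hochberg adjustment, with a smallest adjusted p of 0.768. At an unadjusted p under 0.05 it found 1098 genes (6.49%), of which 643 (3.8%) were higher and 455 (2.69%) lower in lost wells. Among the 9731 genes with a mean of 10 CPM or more the balance turned, with 286 higher and 397 lower. DESeq2 called 240 of 13973 genes (1.72%), 159 higher (1.14%) and 81 lower (0.58%). The values that follow are differences that did not pass edgeR's test, and each is given with its SE from that fit. The fit uses TMM scaling factors and the printed CPM do not. These factors were 1.06 for the lost and 0.995 for the retaining sum of plate 1, and 0.996 and 0.958 in plate 2. Fitted differences thus lie lower than the CPM show, by an amount that matters for genes and list medians near 0. In a sum of wells, more cells with a transcript and more of it per cell cannot be told apart, so values per well are given where a result turns on them. The 10 genes with the smallest p in each direction, counted among genes that averaged 10 CPM or more and pointed the same way in both plates, are named below, and all 20 had an adjusted p of 0.768. They were selected on this contrast, so their sizes describe it and lend it no support. Of all genes tested, 33.1% were higher and 19% lower in lost wells of both plates. Among the 9731 genes with a mean of 10 CPM or more, 2818 were higher and 2267 lower in both plates, a smaller surplus. The lists of capillary markers, valve markers, and valve regulators below hold only genes at that level. Counts of list members below are read beside these shares and counts.

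The ligand of the pathway was among them. *Angpt2* (ENSMUSG00000031465, chr8:18690263-18741562, minus strand) stood at 1016 against 654 CPM in plate 1 and 1153 against 663 CPM in plate 2, lost against retaining, a log2 difference of 0.64 ± 0.07 (SE of the fit to 8 sums, n = 2 plates), or 1.56-fold. Both lost sums lay above both retaining sums, and the Cre-negative wells with at least 1000 CPM of *Tie1* lay below them all, at 372 and 376 CPM. Per well, *Angpt2* ran from 18.7 to 7033 CPM with a median of 570.2 in lost wells of plate 1, and from 17.8 to 4203 with a median of 271 in retaining wells. In plate 2 the medians were 416 and 38.4 CPM. The classes overlapped widely well by well, and the share of wells with at least 100 CPM of *Angpt2* was 83.2% against 75.6% in plate 1 and 55.9% against 47.1% in plate 2. Wells between the limits of *Tie1* held 654 and 740.3 CPM.

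The receptor that the compared mice kept showed no such difference. *Tek* (ENSMUSG00000006386, chr4:94739289-94874976, plus strand), the receptor of *Angpt2*, stood at 235 against 208 CPM in plate 1 and 231 against 245 CPM in plate 2, a log2 difference of -0.03 ± 0.21, and 243 and 324 CPM in Cre-negative wells. Its direction was opposite in the plates and turned with the scaling of libraries. *Ptprb*, a phosphatase that dampens Tie2, was lower in both plates, at 168 against 299 CPM in plate 1 and 165 against 184 CPM in plate 2 (-0.57 ± 0.26). Of the 7 genes listed for the pathway, 5 passed the filter on low counts, and *Angptl1* and *Svep1* lay under 10 CPM in all 4 sums, while *Angpt1* and *Angpt4* did not pass it.

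**Figure D1:**
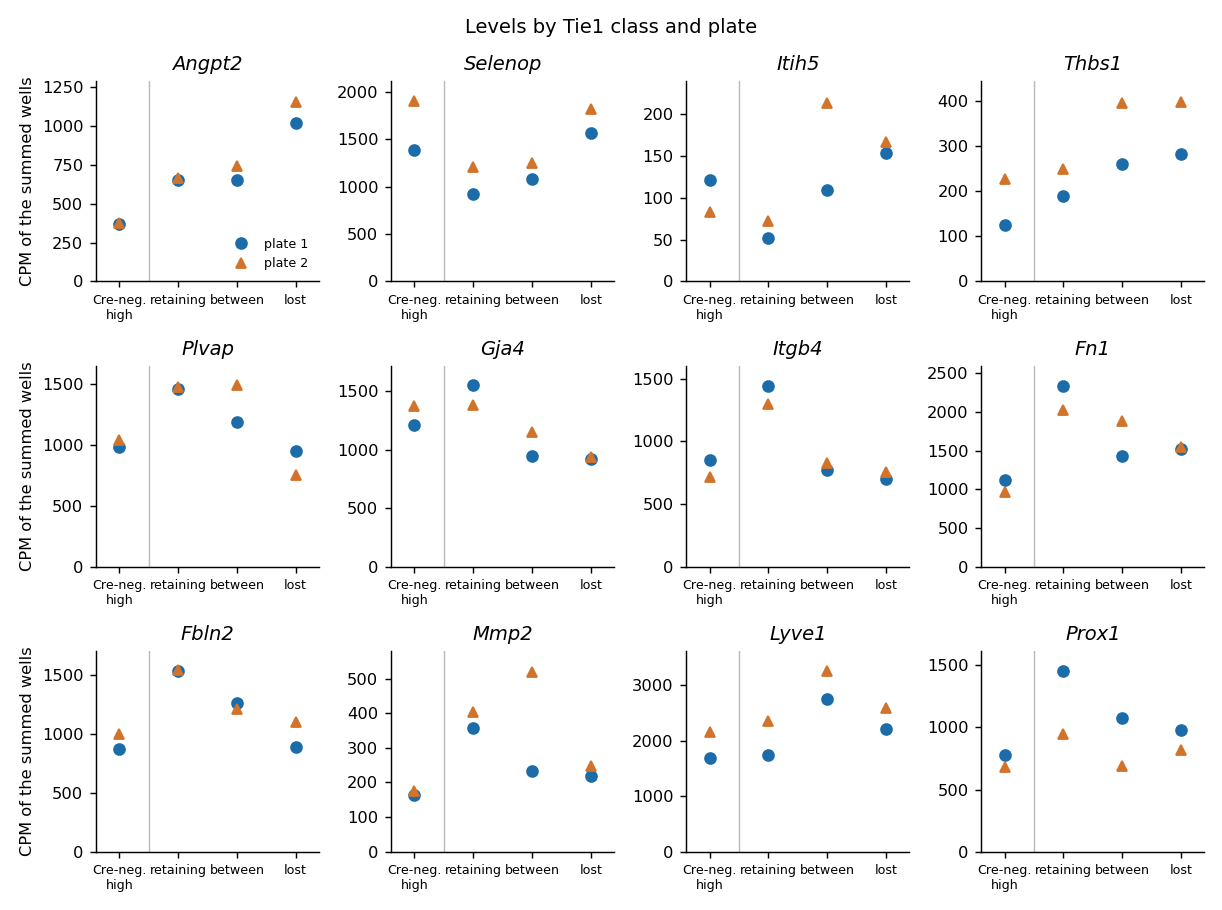
Each panel shows the CPM of 1 gene (vertical axis, from 0) in the summed wells of 4 classes: Cre-negative Tie1fl/fl wells with at least 1000 CPM of *Tie1*, then retaining, between, and lost wells of the Cre-positive plates. Circles are plate 1 and triangles plate 2, and for *Angpt2* the lost sums, 1016 and 1153 CPM, lie above the retaining sums, 654 and 663 CPM.

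*Selenop*, *Itih5*, and *Thbs1*, which encode secreted proteins, were also higher in lost wells. *Selenop* (ENSMUSG00000064373, chr15:3268547-3280508, plus strand), which carries selenium, stood at 1566 against 927 CPM in plate 1 and 1822 against 1203 CPM in plate 2 (0.60 ± 0.07). Its well medians were 1615 against 1005 CPM and 1692 against 1151 CPM, so the typical well differed and not only a few. Here the Cre-negative wells, at 1382 and 1908 CPM, were nearer to the lost than to the retaining wells. *Itih5*, a heavy chain that binds hyaluronan, stood at 154 against 51.7 CPM in plate 1 and 166 against 71.8 CPM in plate 2 (1.32 ± 0.15, 2.49-fold), and 24.3% of lost against 11.5% of retaining wells in plate 1, and 19.8% against 14.9% in plate 2, reached 100 CPM. *Thbs1*, the matrix protein thrombospondin-1, stood at 283 against 189 CPM in plate 1 and 397 against 248 CPM in plate 2 (0.56 ± 0.09). *Itih5* and *Thbs1* were thus carried by a minority of wells, since their medians were at most 37.3 CPM in lost and retaining wells.

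*Ccn2* and *Kcnj8* were lower in level. *Ccn2*, a matrix-associated protein known as a target of YAP and TAZ, stood at 131 against 69.6 CPM in plate 1 and 98.7 against 40.3 CPM in plate 2 (1.03 ± 0.16). *Kcnj8* (ENSMUSG00000030247, chr6:142564837-142571614, minus strand), a pore subunit of ATP-sensitive potassium channels, had the smallest p of all, at 42.0 against 5.72 CPM in plate 1 and 30.1 against 5.05 CPM in plate 2 (2.65 ± 0.28). It rested on few cells. A single well gave 74.2% and 64.9% of its retaining counts and 28.8% and 20.1% of its lost counts, and 12 of 202 and 11 of 227 lost wells against 1 of 78 and 1 of 87 retaining wells reached 100 CPM. Without the largest well of each sum the log2 difference was 3.41, an alternative added after the data were seen. It is the mean of the plate differences in CPM + 1 and not a fitted value like 2.65. The removal took most of the retaining counts but a smaller part of the lost counts. It left retaining sums so low that the size depends on the added 1. The larger value can follow from this and lends the difference no support.

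The other 4 genes of this kind belong to the interferon response, the set of genes that cells switch on when interferons reach their receptors. *Irf1* (ENSMUSG00000018899, chr11:53770014-53778374, plus strand), a transcription factor of that response, stood at 65.3 against 9.13 CPM in plate 1 and 115 against 32.3 CPM in plate 2 (2.25 ± 0.38, 4.76-fold). *Stat2*, which carries the type I interferon signal, stood at 75.4 against 12.3 CPM in plate 1 and 95.7 against 28.1 CPM in plate 2 (2.11 ± 0.35), and *Tap1*, which moves peptides to MHC class I, at 61.9 against 20.7 CPM in plate 1 and 111 against 34.3 CPM in plate 2 (1.56 ± 0.23). *Iigp1*, an interferon-inducible GTPase, stood at 24.0 against 0.968 CPM in plate 1 and 39.5 against 6.05 CPM in plate 2 (3.53 ± 0.59), but in plate 2 a single well gave 97.7% of its retaining and another 66.3% of its lost counts, and in plate 1 a single well gave 38.7% of its lost counts. Cre-negative wells held 69.8 and 69.0 CPM of *Irf1*, 48.7 and 44.1 CPM of *Stat2*, and 39.2 and 42.9 CPM of *Tap1*, all between the lost and retaining levels of the same plate except *Irf1* in plate 1, which lay above both.

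The interferon marker list pointed the same way. Of its 6 genes, which are not among the 4 above, all were higher in lost wells in both plates, against 33.1% of all genes tested, and 5 had lost sums above both retaining sums, against 21.4%. None was called by edgeR, 4 were higher at an unadjusted p under 0.05, against 3.8% of all genes, and DESeq2 called 3, against 1.14%. The lost sums hold more wells than the retaining sums, so rare cells enter them more often, and the part of this was not tested. Their summed level was 353 against 111 CPM in plate 1 and 219 against 75.8 CPM in plate 2, with 191 and 179 CPM in Cre-negative wells. *Irf7*, the master factor of type I interferon genes, stood at 58.2 against 8.07 CPM in plate 1 and 37.8 against 0.910 CPM in plate 2 (3.97 ± 0.79). *Ifit1* and *Rsad2*, antiviral effectors, were near 0 CPM in retaining wells of plate 2, at 0.0455 and 0.0910 CPM, so their fitted sizes depend on the prior count and are not given, nor is the median of the list. A single well gave 98.1% of the *Rsad2* counts and 54.1% of the *Ifit1* counts of lost wells in plate 2.

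The interferon genes were carried by a small share of wells. Wells with at least 500 CPM summed over the 6 genes, a limit set after the data were seen, made up 11.9% of lost wells in each plate (24 of 202, interval 8.12 to 17.1, and 27 of 227, 8.3 to 16.8). In retaining wells the share was 6.41% (5 of 78, 2.77 to 14.1) in plate 1 and 4.60% (4 of 87, 1.8 to 11.2) in plate 2. The intervals of the classes overlapped in both plates. In Cre-negative wells with at least 1000 CPM of *Tie1* it was 10.7% and 11.2%, close to the lost wells.

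Promoter sequence of these genes is shown because they were higher together and belong to a response with known promoter elements. Of the 6 listed genes 5 have a promoter in RefSeq (GRCm38.p6, 250 bases before to 50 after the start), and 4 of these 5 hold an interferon-stimulated response element, searched as GAAANNGAAA on both strands, against 3.44% of 32851 promoters. The gamma-activated site, searched as TTCNNNGAA, was in 0 of the 5 and in 8.30% of all promoters, and *Irf1* holds one. Of the genes named by p, only 6 of 10 on the higher and 5 of 10 on the lower side have a promoter there. The response element was in 3 of 9 promoters on the higher side, those of *Stat2* and *Selenop*, and in 0 of 7 on the lower side. The *Selenop* matches are the same site, counted under different starts. The letters describe the sequence and do not show that a factor binds. Below, capitals mark the first match, read on the printed or the opposite strand, in *Isg15* (chr4:156200862-156200921, minus strand), *Rsad2* (chr12:26456538-26456597, minus strand), *Ifit3* (chr19:34583348-34583407, plus strand), *Ifit1* (chr19:34640760-34640819, plus strand), and *Stat2* (chr10:128270251-128270310, plus strand) for the response element and in *Irf1* (chr11:53769899-53769957, plus strand) for the gamma-activated site.
Isg15: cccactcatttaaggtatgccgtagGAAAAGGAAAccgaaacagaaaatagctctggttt
Rsad2: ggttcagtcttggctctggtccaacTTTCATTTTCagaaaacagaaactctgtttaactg
Ifit3: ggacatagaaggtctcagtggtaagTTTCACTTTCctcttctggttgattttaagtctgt
Ifit1: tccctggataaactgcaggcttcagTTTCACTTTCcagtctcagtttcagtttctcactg
Stat2: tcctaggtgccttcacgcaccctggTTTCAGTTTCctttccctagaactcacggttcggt
Irf1: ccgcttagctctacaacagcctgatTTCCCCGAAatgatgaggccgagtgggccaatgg

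Among the genes lower in lost wells, *Plvap*, *Gja4*, and *Itgb4* are membrane proteins. *Plvap* (ENSMUSG00000034845, chr8:71497765-71511752, minus strand), which forms the diaphragms of endothelial openings, stood at 949.7 against 1463 CPM in plate 1 and 755 against 1478 CPM in plate 2, a log2 difference of -0.87 ± 0.11. Per well, *Plvap* had a median of 687 CPM (range 35.2 to 4872) in lost and 1466 CPM (30.2 to 8397) in retaining wells of plate 1, and 314 against 1287 CPM in plate 2. The share of wells with at least 100 CPM hardly differed in plate 1, at 92.6% against 89.7%, and did in plate 2, at 54.6% against 83.9%. In Cre-negative wells *Plvap* was 982 and 1039.8 CPM, so the lost wells lay near or under the control level and the retaining wells above it.

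*Gja4* (ENSMUSG00000050234, chr4:127311421-127314039, minus strand), the gap junction protein connexin 37, which lymphatic valves need, stood at 916 against 1554 CPM in plate 1 and 937 against 1384 CPM in plate 2 (-0.74 ± 0.09), with 1213 and 1371 CPM in Cre-negative wells. Its well medians were 778 against 1536 CPM and 739.9 against 1449.9 CPM. *Itgb4* (ENSMUSG00000020758, chr11:115974709-116008412, plus strand), the integrin beta4 chain that binds laminin, stood at 699 against 1443 CPM in plate 1 and 752 against 1294 CPM in plate 2 (-0.99 ± 0.13, 1.99-fold), with medians of 389 against 970.0 CPM and 376 against 914 CPM. For both genes the typical lost well was thus well below the typical retaining well in each plate. The wells between the limits held 941 and 1150.4 CPM of *Gja4* and 773 and 824 CPM of *Itgb4*, inside the levels of the other 2 classes in both plates. That held for 10 of the 20 genes, and for 5.23% of genes with a mean of 10 CPM or more, but the 20 were selected for a wide gap, into which a further value falls more easily.

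**Figure D2:**
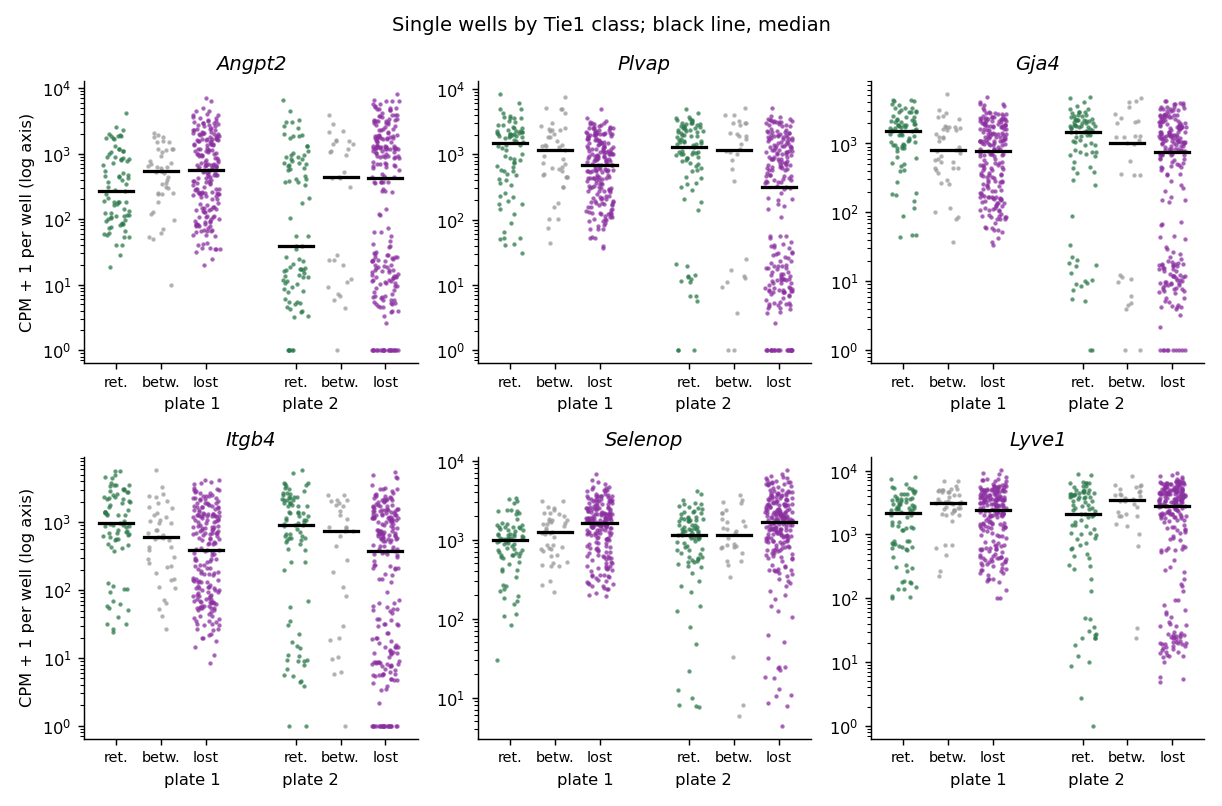
Each point is 1 well of the 2 Cre-positive plates, with CPM + 1 of the gene on a log axis, split into retaining, between, and lost wells of plate 1 and plate 2, and the black line is the median. The classes overlap in every panel, while the medians of *Gja4* differ, 778 against 1536 CPM in plate 1 and 740 against 1450 CPM in plate 2, lost against retaining.

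Matrix proteins and an enzyme that cuts them were lower too. *Fn1* (ENSMUSG00000026193, chr1:71585520-71653200, minus strand), fibronectin, stood at 1515 against 2332 CPM in plate 1 and 1545 against 2022 CPM in plate 2 (-0.58 ± 0.08). *Fbln2*, the matrix glycoprotein fibulin-2, stood at 892 against 1536 CPM in plate 1 and 1099.6 against 1542 CPM in plate 2 (-0.71 ± 0.11), with well medians of 476 against 1122 CPM and 670.2 against 1205 CPM. *Mmp2*, a gelatinase, stood at 219.8 against 358 CPM in plate 1 and 246 against 403 CPM in plate 2 (-0.78 ± 0.14). Control levels were 1126 and 969 CPM for *Fn1*, 875 and 997 CPM for *Fbln2*, and 163 and 174 CPM for *Mmp2*, below the retaining wells for all 3 genes. The wells between the limits held 233 and 518 CPM of *Mmp2*, in plate 2 more than the retaining wells.

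The other 4 genes have unlike functions. *Isyna1*, which makes inositol phosphate, stood at 145 against 260.1 CPM in plate 1 and 109.8 against 206 CPM in plate 2 (-0.95 ± 0.16), and *Cd1d1*, which presents lipids to NKT cells, at 78.4 against 151 CPM in plate 1 and 49.99 against 105 CPM in plate 2 (-1.08 ± 0.19). *Egfl7*, a secreted endothelial protein, differed little, at 2330.4 against 2626 CPM in plate 1 and 2399 against 2770.3 CPM in plate 2 (-0.26 ± 0.05, 1.2-fold). Its CPM alone differed less, by -0.17 and -0.21 on the log2 scale. *Mex3a*, an RNA-binding protein, stood at 3.11 against 28.3 CPM in plate 1 and 15.7 against 106 CPM in plate 2 (-3.04 ± 0.43), with 1 well giving 56.1% and 51.2% of its retaining counts.

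**Figure D3:**
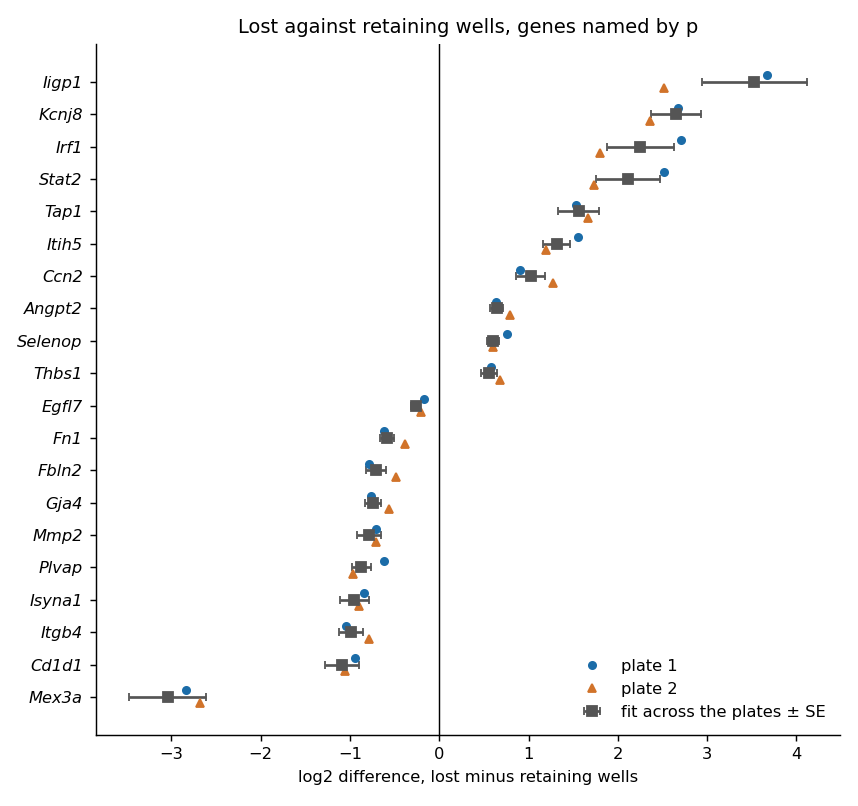
The log2 difference of lost minus retaining wells (horizontal axis) for the 20 genes with the smallest p, as grey squares with SE from the edgeR fit, blue circles for plate 1, and orange triangles for plate 2. *Angpt2* lies at 0.64 and *Itgb4* at -0.99, and the largest sizes, such as 3.53 for *Iigp1* and -3.04 for *Mex3a*, have the widest SE or rest on single wells.

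Genes that mark lymphatic capillaries were on the higher side. Of 7 capillary markers 6 were higher in lost wells in both plates and 0 lower, against 33.1% and 19% of all genes. Their median log2 difference was 0.42, against 0.06 over all genes and -0.03 over genes with a mean of 10 CPM or more. None was called by edgeR, 4 were higher at an unadjusted p under 0.05, against 3.8% of all genes, and DESeq2 called 1, against 1.14%. *Piezo2*, a mechanosensitive channel, stood at 287 against 140.5 CPM in plate 1 and 282 against 163 CPM in plate 2 (0.83 ± 0.16), and *Reln*, the secreted protein reelin, at 1152 against 755 CPM in plate 1 and 1197 against 894 CPM in plate 2 (0.44 ± 0.09). *Lyve1*, the hyaluronan receptor, stood at 2221 against 1745 CPM in plate 1 and 2596 against 2353 CPM in plate 2 (0.17 ± 0.06), with sums that overlapped between the classes. *Tppp3* was the exception, at 362 against 348 CPM in plate 1 and 469 against 627 CPM in plate 2 (-0.26 ± 0.19).

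Valve markers lay on the lower side in plate 1 and on both sides in plate 2. Their summed level was 1455 against 3025 CPM in plate 1 but 2138 against 1958 CPM in plate 2. In Cre-negative wells with at least 1000 CPM of *Tie1* it was 1427 and 1438 CPM. The lost sums thus lay near the control level in plate 1 and above it in plate 2, and the retaining sums above it in both. For *Cldn11* the Cre-negative level was 407 and 404 CPM. Of 5 valve markers 0 were higher and 3 lower in both plates, the 3 also without overlap of the sums (11.4% of all genes), with a median of -0.67. *Cldn11*, a tight junction protein of valves, stood at 346 against 743 CPM in plate 1 and 422 against 449.9 CPM in plate 2 (-0.67 ± 0.26), *Gdf10*, a BMP-family ligand, at 199 against 620.0 CPM in plate 1 and 363 against 391 CPM in plate 2 (-0.95 ± 0.38), and *Gjd3*, a connexin, at 123 against 353 CPM in plate 1 and 159.6 against 217 CPM in plate 2 (-1.06 ± 0.51). Most of each difference was in plate 1. In plate 2 *Slc41a1* and *Neo1* were higher in lost wells, at 934 against 654 CPM and 259 against 246 CPM, and without the largest well of each sum *Gdf10* was at 347 against 334 CPM there. Among valve regulators and flow-response genes, 6 of 10 were lower and 1 higher in both plates, with a median of -0.44. *Klf2*, which shear stress induces, stood at 62.2 against 136 CPM in plate 1 and 49.8 against 93.1 CPM in plate 2 (-1.09 ± 0.26), *Gata2*, a transcription factor of valve cells, at 225 against 505 CPM in plate 1 and 353 against 403 CPM in plate 2 (-0.75 ± 0.34), and *Foxc2*, which valves need, at 310.5 against 616 CPM in plate 1 and 436 against 410.3 CPM in plate 2 (-0.53 ± 0.34), so that *Foxc2* pointed in opposite directions in the plates. *Itga9*, the integrin of valve leaflets, did so too, at 135 against 251 CPM in plate 1 and 201 against 158 CPM in plate 2 (-0.34 ± 0.33). *Gja1*, connexin 43, was the higher one, at 422 against 248 CPM in plate 1 and 373 against 313 CPM in plate 2 (0.43 ± 0.15). DESeq2 called *Gja4* and *Klf2* of the 10 genes in this list, both lower, against 0.58% of all genes.

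Collecting vessel markers split. Of 7 genes 3 were higher and 2 lower in both plates, with a median of -0.09. *Mmrn2*, which coats vessel walls, stood at 271 against 155 CPM in plate 1 and 369 against 117 CPM in plate 2 (1.16 ± 0.36), and *Plvap*, listed here as well, had the lowest difference of the 7.

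The share of wells on the capillary side of these markers was higher among lost wells in both plates, with the wider gap in plate 1. Each well was scored by the capillary against the collecting vessel and valve markers, without *Lyve1*, *Plvap*, and *Cldn11*, and split at the median of its plate, after the data were seen. The score still holds *Reln*, *Piezo2*, *Gdf10*, *Gjd3*, and *Mmrn2*, whose differences are given above. The shares are therefore not independent of those differences. On the capillary side lay 56.4% (interval 49.5 to 63.1) of lost against 35.9% (26.1 to 47.0) of retaining wells in plate 1 and 51.5% (45.1 to 58.0) against 44.8% (34.8 to 55.3) in plate 2, where the intervals overlapped, and 35 and 27 lost and 14 and 11 retaining wells lay close to the limit. Within the capillary side the log2 difference was 0.88 for *Angpt2*, -1.39 for *Plvap*, -0.66 for *Gja4*, and -1.24 for *Itgb4*, and on the other side it was 0.32, -0.49, -0.69, and -0.73. These 4 genes had the same direction on both sides, as did *Selenop* at 0.41 and 0.51, and neither side held a gene called by edgeR. All 5 were selected on the pooled wells that the sides divide, so a like direction in the parts can follow from that selection. The part that the mix of capillary and other LECs has in the differences was not tested. *Fn1* was -0.15 on the capillary side and -0.75 on the other, and *Lyve1* 0.07 and -0.26.

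The VEGF-C receptor genes showed little difference. *Flt4*, which encodes VEGFR3, stood at 1699 against 1719.6 CPM in plate 1 and 1543 against 1639 CPM in plate 2 (-0.13 ± 0.06), *Kdr*, VEGFR2, at 631 against 732 CPM in plate 1 and 624 against 522 CPM in plate 2 (-0.05 ± 0.17), and the coreceptor *Nrp2* at 398 against 414 CPM in plate 1 and 221 against 274 CPM in plate 2 (-0.26 ± 0.20). The *Flt4* sums overlapped between the classes, and for *Kdr* the plates disagreed in direction. Of the 7 genes listed 1 was higher and 2 lower in both plates, with a median of -0.07. *Prox1*, the master factor of LEC identity and the gene whose regulatory region drives the Cre, stood at 984 against 1455 CPM in plate 1 and 822 against 944 CPM in plate 2 (-0.46 ± 0.12), with 778 and 679 CPM in Cre-negative wells.

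Genes of PI3K, Akt, and FoxO signaling lay on both sides. Of 21 genes 8 were higher and 5 lower in both plates, with a median of -0.05, and edgeR called none. *Pik3ca*, the catalytic subunit p110alpha, stood at 28.0 against 46.6 CPM in plate 1 and 35.5 against 25.2 CPM in plate 2 (-0.20 ± 0.44), *Akt1* at 175 against 236 CPM in plate 1 and 168 against 155 CPM in plate 2 (-0.23 ± 0.20), and *Foxo1* at 212 against 198 CPM in plate 1 and 95.5 against 145 CPM in plate 2 (-0.33 ± 0.21). *Rptor*, the Raptor subunit of mTORC1, was the one of the 21 that DESeq2 called, against 0.58% of all genes called lower. It stood at 57.8 against 109.5 CPM in plate 1 and 34.9 against 99.2 CPM in plate 2 (-1.29 ± 0.28). Of 20 genes listed as FoxO targets 9 were higher and 3 lower in both plates, with a median of 0.21, or 0.12 over the 15 with at least 10 CPM. *Angpt2*, itself a FoxO target, was the one of the 20 that passed DESeq2, against 1.14% of all genes called higher. *Txnip*, the most abundant, stood at 1719.6 against 1619 CPM in plate 1 and 1847 against 1576 CPM in plate 2 (0.08 ± 0.07), and *Pik3ip1*, an inhibitor of PI3K, at 25.2 against 19.6 CPM in plate 1 and 42.4 against 6.87 CPM in plate 2 (1.41 ± 0.81).

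**Figure D4:**
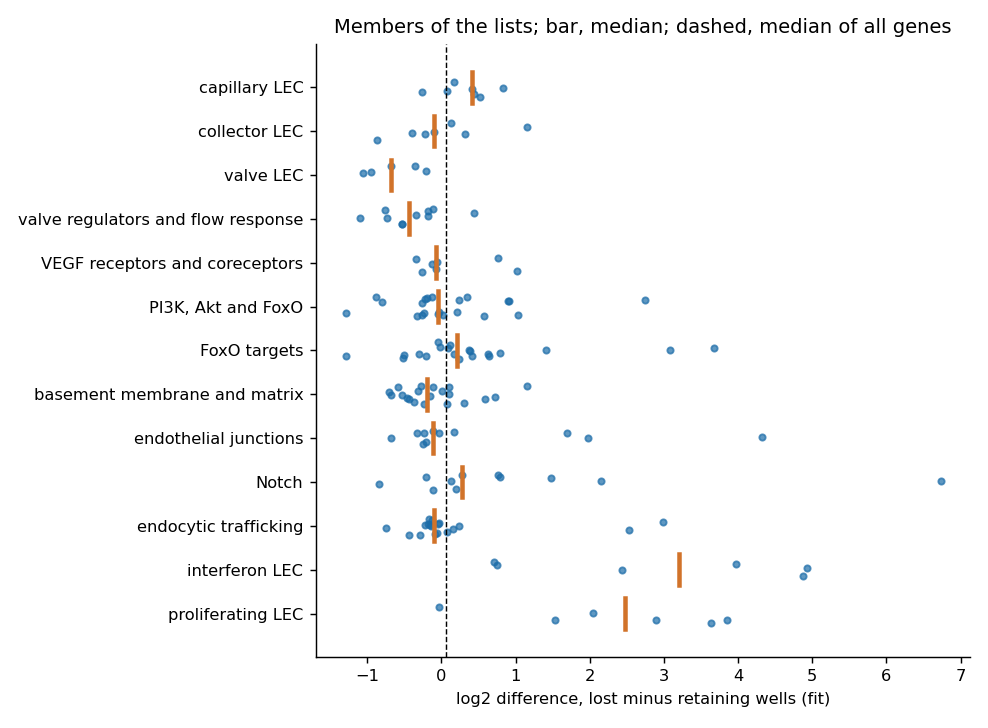
Each point is the log2 difference of lost minus retaining wells (horizontal axis) of 1 member of the list named at the left, the orange bar is the median of the list, and the dashed line is the median of all genes, 0.06. Capillary markers have a median of 0.42, valve markers of -0.67, and VEGF receptors of -0.07, and the interferon and proliferation lists, whose levels are low, have the highest medians of the lists drawn.

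Basement membrane and matrix genes went both ways, with 7 of 20 higher and 7 lower in both plates. Beside *Fn1* and *Fbln2*, the lower ones included *Eln*, elastin, at 496 against 631 CPM in plate 1 and 470.0 against 633 CPM in plate 2 (-0.46 ± 0.17), and *Lama5*, a laminin chain, at 87.7 against 131 CPM in plate 1 and 66.4 against 103 CPM in plate 2 (-0.68 ± 0.30). Higher were *Mmrn1*, a matrix protein of lymphatic vessels, at 2251 against 1754 CPM in plate 1 and 2315 against 1754 CPM in plate 2 (0.31 ± 0.05), and *Nid2*, which links laminin and collagen networks, at 328 against 175 CPM in plate 1 and 427 against 265 CPM in plate 2 (0.72 ± 0.23). *Col4a1*, a basement membrane collagen, differed by -0.11 ± 0.07. Junction genes had a median of -0.11 over 11 tested, with *Cldn5*, the main endothelial claudin, at -0.20 ± 0.05 and *Cdh5*, VE-cadherin, at -0.03 ± 0.20. Notch pathway genes had a median of 0.27 (6 higher and 2 lower of 11), with *Notch1* at -0.11 ± 0.19 and *Dll4* at 0.12 ± 0.20. Endocytic genes had a median of -0.10 (5 and 5 of 18), with *Rab7* at -0.14 ± 0.09, and chemokine and adhesion genes of 0.15 (5 and 2 of 13), or -0.11 over the 6 with a mean of 10 CPM or more, with *Ccl21a*, the chemokine that guides dendritic cells, at -0.07 ± 0.08. edgeR called no gene of these lists. DESeq2 called *Mmrn2*, *Rab4a*, and *Selp* higher, against 1.14% of all genes, and *Fn1* and *Fbln2* lower, against 0.58%. Its log2 difference was 3.02 for *Rab4a*, an endocytic gene, and 5.79 for *Selp*, an adhesion gene.

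Proliferation genes were at low levels in both classes. Of 6 genes 5 were higher and 0 lower in both plates, against 33.1% and 19% of all genes. edgeR called none, 3 were higher at an unadjusted p under 0.05, against 3.8% of all genes, and DESeq2 called *Birc5* and *Ube2c*, against 1.14%. Their summed level was 181 against 101 CPM and 133 against 37.5 CPM. The share of wells with at least 100 CPM over the list, a limit set after the data were seen, was 17.8% (interval 13.2 to 23.7) against 21.8% (14.1 to 32.2) in plate 1 and 11.9% (8.3 to 16.8) against 8.05% (3.95 to 15.7) in plate 2. The share thus pointed in opposite directions in the plates, within overlapping intervals. In Cre-negative wells with at least 1000 CPM of *Tie1* it was 22.6% and 8.7%. Dissociation stress genes, which rise when tissue is digested, had a median of 0.31 (6 and 2 of 14), but of -0.14 over the 11 with a mean of 10 CPM or more, with summed levels of 1894 against 1738 CPM and 1684 against 1899 CPM.

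Markers of other cells were low beside the LEC markers in both classes. Fibroblast markers summed to 146 against 102 CPM and 201 against 80.1 CPM, with 5 of 6 higher in lost wells in both plates, against 33.1% of all genes. *Col3a1*, a fibrillar collagen, was the 1 of the 6 that DESeq2 called, against 1.14% of all genes called higher. It stood at 67.8 against 40.5 CPM in plate 1 and 136 against 39.7 CPM in plate 2 (1.18 ± 0.35). Keratinocyte markers summed to 83.2 against 80.4 CPM and 104 against 61.2 CPM, mural markers to 34.9 against 12.8 CPM and 46.5 against 23.0 CPM, immune markers to 42.8 against 33.7 CPM and 32.2 against 17.2 CPM, and Schwann cell and melanocyte markers to 19.4 against 6.04 CPM and 5.62 against 11.8 CPM. Single lost wells reached 9588 CPM of *Krt5* in plate 1 and 12276 CPM in plate 2, and gave 88.5% and 95.8% of its lost counts. In retaining wells the highest levels of *Krt5* were 1549 and 1124 CPM. Blood endothelial markers, several of which LECs also express, summed to 771 against 832 CPM and 874 against 807 CPM. The part that traces of other cells have in the differences was not tested.

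Retaining wells were then compared with cells that had *Tie1* and never had Cre, the wells with at least 1000 CPM of *Tie1* in the 2 Tie1fl/fl plates (234 and 276 wells). This sets LECs that kept *Tie1* beside Tie1-lost neighbors next to control LECs. The retaining wells also carry Cre, and their median *Tie1*, 2070 and 1904 CPM, was below the 2444 and 2958 CPM of the control wells. Whether some retaining cells had lost 1 allele was not tested, and Cre, neighbors, and *Tie1* level cannot be told apart here. edgeR called 0 of 16184 genes (0.0%), with 917 (5.67%) at an unadjusted p under 0.05, and DESeq2 called 175 of 14615 (1.2%), 73 higher (0.499%) and 102 lower (0.698%) in retaining wells. The comparison shares the retaining sums with the one above, so the values are only set side by side. *Angpt2* was higher in retaining than in Cre-negative wells by 0.89 ± 0.20 on the log2 scale, *Fn1* by 1.13 ± 0.19, *Mmp2* by 1.25 ± 0.23, *Itgb4* by 0.88 ± 0.19, *Fbln2* by 0.79 ± 0.21, *Plvap* by 0.61 ± 0.20, and *Prox1* by 0.79 ± 0.25. DESeq2 gave adjusted p values of 0.014 for *Angpt2*, 9.7e-05 for *Fn1*, 0.00059 for *Mmp2*, and 0.0079 for *Itgb4*, but 0.0737 for *Fbln2*, 0.217 for *Plvap*, and 0.173 for *Prox1*, which did not pass, while edgeR gave 0.792 or more for every gene. *Irf1* was lower, at -1.65 ± 0.64, and *Selenop* at -0.56 ± 0.29. For *Angpt2* the order of the 3 classes was thus Cre-negative, retaining, lost, while for *Fn1*, *Itgb4*, *Fbln2*, *Plvap*, and *Mmp2* the retaining wells were the highest of the 3.

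Wells under 250 CPM of *Tie1* also occur without Cre, and they give the background of the rule. Only plate 2 of Tie1fl/fl, with 29 such wells, and plate 1 of Tie1fl/fl,Tie2fl/fl, with 24, held the 10 wells set as a minimum. The difference between the lost-retaining effect with Cre and the like effect without Cre was above 0 for *Angpt2*, at 1.29 ± 0.25, and below 0 for *Itgb4*, at -1.28 ± 0.19, *Gja4*, at -0.73 ± 0.17, and *Plvap*, at -0.77 ± 0.41. edgeR called 0 of 17618 genes (0.0%), with 1521 (8.63%) at an unadjusted p under 0.05, and DESeq2 called 785 of 14543 (5.4%). The median over all genes of this difference was 0.57, and that of low against high wells without Cre was -0.40. Several abundant genes lay nearer to 0, such as *Lyve1* at -0.003, *Mmrn1* at -0.002, *Col4a1* at -0.02, and *Txnip* at 0.05. Other abundant genes lay below 0, such as *Flt4* at -0.19, *Ccl21a* at -0.41, *Cldn5* at -0.44, *Egfl7* at -0.45, and *Ctnnb1* at -0.57. The median is therefore no baseline for genes of high level, and how the offset depends on level was not tested. *Irf1*, at 4.16 ± 0.78, and *Itih5*, at 1.69 ± 0.61, lay above that median. *Ccn2*, at 0.17 ± 0.71, and *Thbs1*, at -0.84 ± 0.83, lay below it, and *Mmp2*, at 0.97 ± 0.94, above it. *Selenop*, itself of high level, was at 0.19 ± 0.15, below the median but above the abundant genes just given. Without Cre, low wells differed from high wells by 0.43 ± 0.11 for *Selenop*, 0.32 ± 0.08 for *Mmrn1*, and 0.18 ± 0.10 for *Lyve1*. With Cre the differences were 0.60, 0.31, and 0.17, so these genes were higher in wells low in *Tie1* with and without Cre. *Angpt2* and *Itgb4* went the other way without Cre, at -0.64 ± 0.17 and 0.30 ± 0.13. No gene passed edgeR's test without Cre, with a smallest adjusted p of 0.403. The SE of *Ccn2*, *Thbs1*, and *Mmp2* are wide, and no gene's distance from the median was tested. In the low wells of Tie1fl/fl plate 2 *Angpt2* was 264 CPM against 376 CPM in the high wells of that plate, and *Itgb4* was 816 against 718 CPM.

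In the plates where *Tek* was floxed too, the same rule gave 561 lost and retaining wells, and 19 of the 20 differences named by p were smaller there, as can follow from their selection on the *Tie1* floxed plates. edgeR called 0 of 16927 genes (0.0%) between lost and retaining wells of these plates, with 865 (5.11%) at an unadjusted p under 0.05. *Tek* itself was 8.81 against 39.9 CPM and 21.1 against 148 CPM there, a log2 difference of -2.51 ± 0.23, against -0.03 with *Tie1* alone floxed. *Angpt2* was 3399 against 2825 CPM and 2918 against 2617 CPM (0.20 ± 0.07), above every class of the *Tie1* floxed plates. In plate 1 of Tie1fl/fl,Tie2fl/fl without Cre, wells with at least 1000 CPM of *Tie1* held 277 CPM of *Tek* and 280 CPM of *Angpt2*. The retaining wells with both genes floxed were thus low in *Tek* and high in *Angpt2* themselves. What part this reference has in the smaller differences was not tested. *Plvap* was -0.27 ± 0.11, *Gja4* -0.25 ± 0.09, *Itgb4* -0.26 ± 0.13, and *Selenop* 0.21 ± 0.07, while *Fbln2*, at -1.08 ± 0.11, and *Cldn11*, at -1.50 ± 0.26, were lower than with *Tie1* alone. The difference of the 2 effects was 0.44 ± 0.10 for *Angpt2*, -0.60 ± 0.15 for *Plvap*, -0.73 ± 0.19 for *Itgb4*, and 2.49 ± 0.30 for *Tek*. edgeR called 0 of 16927 genes (0.0%) for this difference, with 832 (4.92%) at an unadjusted p under 0.05 and a smallest adjusted p of 0.957, and DESeq2 called 112 of 14301 (0.783%).

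**Figure D5:**
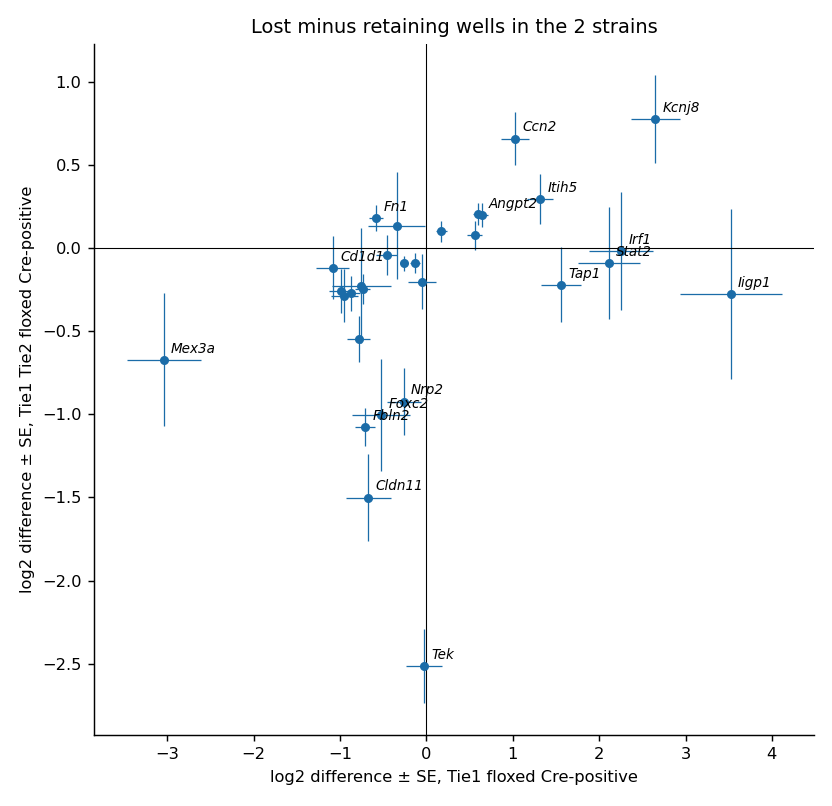
Each point is 1 gene, with the log2 difference of lost minus retaining wells in the *Tie1* floxed Cre-positive plates on the horizontal axis and in the *Tie1* Tie2 floxed Cre-positive plates on the vertical axis, each with its SE. *Tek* lies near 0 on the horizontal axis and at -2.51 on the vertical one, and *Irf1*, *Stat2*, and *Tap1* lie at 2.25, 2.11, and 1.56 against -0.02, -0.09, and -0.22.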

How the data were processed

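Smart-seq plates of single LECs were analysed, 2 for each of 4 genotypes, and 2 droplet libraries of the series were not used here. For each well the authors deposited read counts per gene, without normalization. The submitters' processing notes name TopHat2 (2.1.1), SAMtools (0.1.18), Subread featureCounts, and GRCm38/mm10, and the column names state that duplicate reads were removed. Smart-seq reads carry no molecular identifiers. The tables name genes by symbol or Ensembl identifier and were joined on 42565 genes, 789 of them through an older symbol, with 95.88% to 97.1% of counts kept. Spike-ins were left out. Wells were kept and classed as the report states, 1 cell was sorted per well, and no doublet caller was run. CPM are of summed counts, without scaling factors, and log2 differences by plate use CPM + 1. Counts were summed per class and plate and fitted by the quasi-likelihood test of edgeR (4.0.16, with TMM and filterByExpr, plate as a term, class effect by strain, 8 sums of the 4 Cre-positive plates, 2 residual degrees of freedom, threshold 0.05). Benjamini-Hochberg adjustment was used throughout. DESeq2 (1.42.0), limma (3.58.1), other scaling, filters, classes, and plates were alternatives. Named genes were those that the study's text names, the 10 with the smallest p in each direction (none being called) averaging 10 CPM or more and with the same direction in both plates, and up to 4 of the most abundant members of each list. Other list members were chosen after their values were seen. The members, lists, and tests were chosen with earlier results of these data known. The edgeR test was tried on 1 set of simulated counts of the same genes for each comparison. For lost against retaining wells it recovered 16.7%, 39.4%, and 57.6% of log2 changes of 1, 2, and 3. Of changes of 1 it recovered 0% between strains, 0% against Cre-negative plates, and 2.9% for retaining against Cre-negative wells. A count of 0 called genes is therefore no sign that the classes are alike. Coordinates are of the GENCODE annotation of GRCm38, and promoters are RefSeq sequences of GRCm38.p6. Other tools were R 4.3.3, Python 3.11.15, numpy 2.4.6, pandas 2.3.3, scipy 1.17.1, and matplotlib 3.10.9.

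In the comparison of retaining with Cre-negative wells the replicate numbers go with the labelled sex and the table layout. Over 9706 genes the deviations of same-numbered plates had a correlation of 0.165, across genes and with 2 pairs, and the labels name no shared animals, so the numbers were not taken to pair the plates. Lost and retaining wells of a plate are paired by the plate itself.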

Additional observations from a re-analysis of the deposited data

Results flagged for a closer look

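Some named genes pointed one way in both *Tie1* floxed Cre-positive plates and the other way in both plates with floxed *Tie1* and Tie2. The difference between the strains in the lost-retaining effect was 1.78 for *Tap1*, 3.80 for *Iigp1*, and 2.20 for *Stat2* on the log2 scale, and -0.76 for *Fn1*. None passed edgeR's test of the difference, with an adjusted p of 0.957 for each. With *Tie1* alone floxed the log2 difference of lost minus retaining wells was 1.56 for *Tap1*, 3.53 for *Iigp1*, 2.11 for *Stat2*, and -0.58 for *Fn1*, and with both floxed it was -0.22, -0.28, -0.09, and 0.18. *Tap1*, *Iigp1*, and *Stat2* belong to the interferon response, and for *Iigp1* a single well gave 97.7% of the retaining counts of plate 2 with *Tie1* alone floxed. For *Fn1* the levels in the double floxed plates were 3759.6 against 3179 CPM and 3655 against 3313 CPM. The 4 genes were among 30 examined for such a pattern, and 20 of these had been selected for a small p in 1 of the strains.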

How the results depend on the processing

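No gene was called between lost and retaining wells with RLE, upper quartile, or no scaling factors, no filter on low counts, wells of at least 100000 counts, stricter classes, without fibroblast-rich wells (which removed none), without either plate, with the 2 plates alone, with all plates, with limma, on either side of the marker axis, or with no replicate block (without the plate term), where the count was 0. DESeq2 called 240, and wells thinned to 50000 counts gave 1, *Angpt2*. Minimum levels were added after the data were seen, all of them to learn how the count depends on the filter. It was 0 at 5 and 10 CPM, 9 at 20 CPM (1 with robust fitting), 8 at 50 CPM (8), and 12 at 100 CPM (13), where fewer genes were tested. *Itgb4*, *Itih5*, *Fn1*, *Angpt2*, *Plvap*, *Gja4*, *Mmrn1*, and *Selenop* were called at 20, 50, and 100 CPM without robust fitting. For the other comparisons DESeq2 called 112 (between strains), 785 (against Cre-negative plates), and 175 genes (retaining against Cre-negative wells), no filter called 5 in the last, and the replicate block called 0. Under 100 CPM of *Tie1* lay 46.4% of wells of plate 1. The 20 genes named by p kept their direction in each setting run. They had been selected for a small p and for the same direction in both plates, and the settings reuse the same wells. Their kept direction can therefore follow from the selection and lends no support. *Tek* turned to 0.046 without plate 2 (-0.14 without plate 1), 0.091 with limma, 0.048 with no scaling, 0.027 with upper quartiles, 0.19 off the capillary side, 0.016, 0.026, 0.036, 0.046, and 0.080 at the 5 filters, and 0.14 without the largest wells. *Kdr* turned to 0.20 without plate 1 (-0.35 without plate 2), 0.25 with limma, 0.023 with no scaling, 0.0016 with upper quartiles, 0.00044, 0.011, 0.020, and 0.054 at 10 to 100 CPM, and 0.062 without the largest wells. *Itga9* turned to 0.29 without plate 1 (-1.02 without plate 2), 0.046 with limma, and 0.084 off the capillary side, *Foxc2* to 0.031 without plate 1 (-1.12 without plate 2), and *Lyve1* to -0.26 off the capillary side. The values without the largest wells are from CPM + 1 without scaling factors, not from the fit. The cause of these turns was not tested.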
